A study of Caenorhabditis elegans with 2 samples.

Results

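The nuclear hormone receptor genes of Caenorhabditis elegans were examined for listed ChIP-seq peaks of a member of the same family, NHR-11. The set held every protein-coding gene whose symbol starts with nhr- in the Ensembl annotation of build WBcel235, which was 269 of 19973 nuclear protein-coding genes. Of these, 167 lay on chromosome V, 33 on IV, 23 on X, 23 on I, 15 on II and 8 on III. A list of 10 receptors with clear counterparts in flies and vertebrates was called conserved (nhr-6, nhr-8, nhr-23, nhr-25, nhr-41, nhr-48, nhr-67, nhr-85, nhr-91 and nhr-111), and the other 259 were called the expanded family. Receptors of V whose neighbouring 5′ ends were at most 20 kb apart, in runs of at least 3, made up 17 clusters with 102 members.

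Nuclear hormone receptors are transcription factors with a zinc-finger DNA-binding domain and, in most members, a domain that can hold a small lipophilic ligand such as a steroid or a fatty acid. Nematodes carry far more of them than insects or vertebrates, and most of the extra genes are thought to descend from an ancestor related to vertebrate HNF4, many of them in tandem arrays on chromosome V. Well studied members control moulting, larval timing, fat metabolism and the breakdown of short-chain metabolites, and receptors that act upon one another's genes are known from the moulting cascade of insects.

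ChIP-seq recovers the DNA fragments bound by a chosen protein and reports, as peaks, the places where their reads exceed those of a control. The larvae were of strain OP305, which has a tagged eGFP copy of nhr-11 on the integrated transgene wgIs305 and the mutation unc-119(ed3) III, and were taken whole, as a mix of both sexes, at the L2 larval stage. The labels name nhr-11 as the antibody target and do not name the promoter of the transgene. Both samples were of this 1 group, as 2 biological replicates, so there was no comparison between genotypes, stages or treatments and no test between groups could be made. An untagged strain was not analysed here, and the control alignment was not analysed here either. Whole larvae mix all tissues, so a peak does not say in which cells the receptor lay there.

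The lists on build ce11 held 280 thresholded peaks, 13299 unthresholded peaks of the pooled replicates, and 25831 and 27015 unthresholded peaks of replicates 1 and 2. The labels of the unthresholded lists describe them as peaks and background, as input for a reproducibility step. Their entries are called peaks here, but an entry need not mark a place where NHR-11 was bound. The thresholded peaks were the strongest of the pooled ones, with a lowest signal of 27.4. Signal was the value the authors' peak caller gave each peak, on a scale that the sources used here do not give. The lists hold no counts of reads, so depth is unknown. Signals of different lists therefore had no shared scale, and ranks within a list were used beside them. For each gene the highest signal was taken among peaks with a summit from 1000 bp upstream to 500 bp downstream of any annotated transcript 5′ end, which is called the window here. A gene with a summit of each replicate in its window is called supported in both replicates, which states the position of peaks and not an effect on the gene.

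The DNA under the strongest receptor peaks is shown first, as 101 bp centred on the pooled summit, read 5′ to 3′ on the strand of the receptor gene (ce11, RefSeq sequence). The 5 windows below belong to the highest 2 receptors by pooled signal and to 3 others, nhr-32, nhr-48 and nhr-40, that differ in how the letters CTCTC or their reverse complement GAGAG (in capitals) recur in them. CTCTC was chosen after the sequences were seen, and nhr-66 holds none in this window.
nhr-68, chrV:11573066-11573166, plus strand: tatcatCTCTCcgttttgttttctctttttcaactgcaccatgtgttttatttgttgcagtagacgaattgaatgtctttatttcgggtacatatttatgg
nhr-66, chrIV:8232649-8232749, minus strand: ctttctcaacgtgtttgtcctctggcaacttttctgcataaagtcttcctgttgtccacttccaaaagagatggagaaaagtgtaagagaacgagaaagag
nhr-32, chrX:13251522-13251622, plus strand: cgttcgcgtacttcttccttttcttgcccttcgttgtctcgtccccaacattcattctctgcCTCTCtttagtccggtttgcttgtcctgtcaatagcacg
nhr-48, chrX:15707556-15707656, plus strand: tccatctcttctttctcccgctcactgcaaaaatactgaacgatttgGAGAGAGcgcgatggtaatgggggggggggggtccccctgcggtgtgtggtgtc
nhr-40, chrX:2598935-2599035, plus strand: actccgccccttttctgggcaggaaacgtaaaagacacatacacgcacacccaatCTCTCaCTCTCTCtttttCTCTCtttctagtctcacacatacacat
The letters CTCTC, counted on both strands, stood in 14 of the 46 summit windows of receptors with a pooled summit and support in both replicates (30.4%). They stood in 8 of the 15 windows of highest signal (53.3%) and in 1044 of the 5158 pooled summit windows that lay near a protein-coding 5′ end anywhere in the nuclear genome (20.2%). The 5158 windows were not selected by signal or by support in both replicates, as the receptor windows were. Because the motif was picked from the receptor windows, the counts describe them and nothing more.

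Hexamers that nuclear receptors are known to bind stood in few of the same windows. Those searched, on both strands, were the hexamer AGGTCA and its relatives, the hexamer AAGTCA, the hexamer AGTTCA and the hexamer GGGTCA. At least 1 of them stood in 2 of the 46 receptor windows (4.35%) and in 738 of the 5158 windows genome-wide (14.3%). The receptors were nhr-291, with AGGTCA on its own strand, and nhr-139, with AAGTCA on the other strand, written TGACTT here, and both are members of chromosome V clusters. Their windows follow, with the hexamer in capitals.
nhr-139, chrV:6987809-6987909, minus strand: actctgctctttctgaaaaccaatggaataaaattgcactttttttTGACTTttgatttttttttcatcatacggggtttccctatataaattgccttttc
nhr-291, chrV:15318929-15319029, plus strand: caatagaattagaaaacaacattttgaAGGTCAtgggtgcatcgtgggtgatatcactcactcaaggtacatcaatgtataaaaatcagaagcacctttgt
AGTTCA stood in 0 of 46 receptor windows against 5.95% of all windows, and GGGTCA in 0 against 1.76%. AGGTCA stood in 2.73% and AAGTCA in 4.67% of all windows. A missing hexamer says only that its letters were not within these 101 bp.

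At nhr-255, a receptor gene on chromosome X, the pooled summit lay inside a tRNA gene (WBGene00014626, chrX:15742050-15742133) on the same strand, 545 bp upstream of the receptor's 5′ end. The tRNA gene's letters are in capitals.
nhr-255, chrX:15742015-15742115, plus strand: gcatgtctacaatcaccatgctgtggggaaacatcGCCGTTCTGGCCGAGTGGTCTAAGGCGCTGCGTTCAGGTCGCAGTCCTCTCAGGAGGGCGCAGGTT
Of the 71 receptors with a pooled summit, nhr-255 was the 1 (1.41%) that had it within 500 bp of a short non-coding RNA gene, against 4.12% of all genes with a pooled summit. The mean GC content was 37.2% over the 46 receptor windows, 43.3% over the 15 of highest signal and 37.9% over all 5158.

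Receptor genes as a whole carried peaks about as often as other protein-coding genes. A thresholded summit lay in the window of 1 of 269 receptors (0.372%), nhr-68, where the background over all protein-coding genes was 0.801%. A pooled summit was found for 71 receptors (26.4%) against a background of 24.7%. Replicate 1 had a summit for 105 receptors (39.0%, background 40.4%) and replicate 2 for 118 (43.9%, background 39.7%). Both replicates had one for 65 receptors (24.2%), against a background of 21.4%. These shares were near the background in each list, and receptors lay above it in some and below it in others, so no statement about the whole family follows from them.

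The remaining receptors divide by what the lists held. In 40 receptors only replicate 1 had a summit and in 53 only replicate 2, while 109 had no summit in any list. Of the 65 supported in both replicates, 46 also had a pooled summit and 19 did not. Another 23 receptors had a pooled summit with 1 replicate, and 2 had a pooled summit with no replicate. Over all 19973 protein-coding genes, replicate 1 had a summit in 8060, replicate 2 in 7923 and both in 4278. The rest of this split was not counted over all genes, so it describes the receptors only. Where a replicate share is high, both replicates can meet in a window without marking the same place, so the product of the 2 shares is given as a guide. It was 17.1% for receptors and 16% for all genes.

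**Figure D1:**
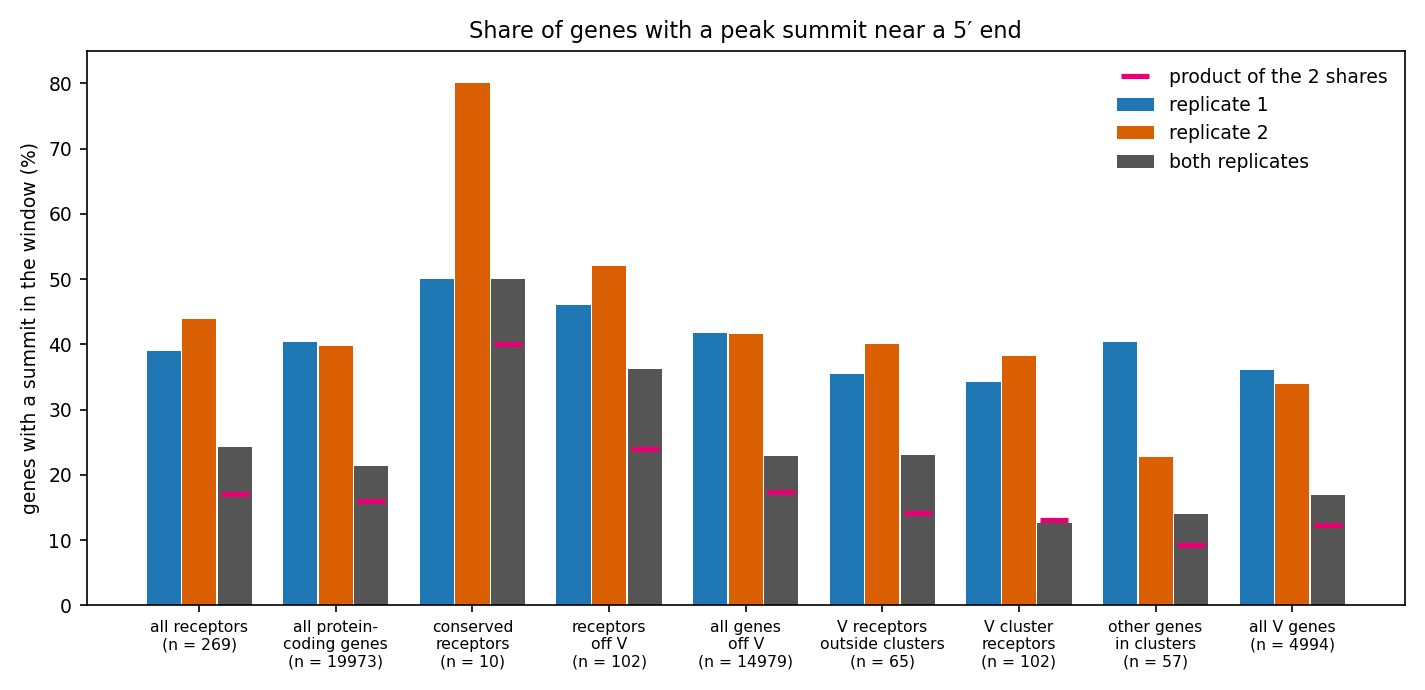
Share of genes (%) with a summit in the window in replicate 1, in replicate 2 and in both, for groups of receptors and for protein-coding genes; the pink mark is the product of the replicate shares. All receptors (24.2%) and all genes (21.4%) sit close together in both replicates, receptors off chromosome V reach 36.3% and V cluster receptors 12.7%, which is next to their product of 13.1%.

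The strongest receptor peaks belonged to few genes, and the replicates ranked most of them differently. Ordered by pooled signal among receptors supported in both replicates, the first 7 were nhr-68, nhr-66, nhr-142, nhr-32, nhr-12, nhr-255 and nhr-48. The first 15 held 5 genes of chromosome V, 5 of X, 4 of IV and 1 of II.

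nhr-68 (WBGene00003658, chromosome V), which with nhr-10 switches on the propionate shunt when propionate builds up, had the only thresholded receptor peak. Its pooled signal was 27.6 (rank 270), with 15.9 in replicate 1 (rank 410) and 11.7 in replicate 2 (rank 408). Those ranks belong to summits 164 bp apart. At the pooled summit itself, the replicate 1 peak of rank 410 lay 64 bp away, and the replicate 2 summit 5 bp away had a signal of 7.78 (rank 2106). The pooled summit was intergenic, 324 bp upstream of nhr-68, and was nearer to the 5′ end of the neighbour H12C20.7, whose window it shared. When each peak was given to its nearest 5′ end only, 0 receptors had a thresholded peak.

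nhr-66 (WBGene00003656, chromosome IV), a partner of NHR-49 in the control of lipid genes, was just outside the thresholded list. The pooled signal was 26.6 (rank 302), with 12.8 in replicate 1 (rank 884) and 12.4 in replicate 2 (rank 323). The summit lay in an intron of nhr-66 and within anr-44, an antisense RNA gene, 861 bp upstream of one of its 7 annotated 5′ ends, with no other protein-coding gene sharing it. Of all 65 receptors supported in both replicates, 2 had their highest peaks among the 1000 strongest of both replicate lists, and these were nhr-68 and nhr-66.

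At nhr-142 (WBGene00018430, chromosome V) the replicates differed most among the first 3. Its pooled signal was 26.1 (rank 330), with 22.5 in replicate 1 (rank 125) and 4.33 in replicate 2 (rank 12313). The replicate 1 peak was the strongest of any receptor in that list, while the replicate 2 peak, 75 bp away, was near the middle of its own list. The summit, 515 bp upstream, was shared with F44E7.9, whose 5′ end was the nearer one.

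The opposite order held at nhr-32 (WBGene00003626, chromosome X). It had a pooled signal of 25.7 (rank 343), with 9.65 in replicate 1 (rank 2476) and 14.6 in replicate 2 (rank 183). That replicate 2 peak was the strongest of any receptor in its list, and the replicate summits lay 49 bp apart in intergenic DNA.

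nhr-12 (WBGene00003611) was the strongest member of a chromosome V cluster. Its pooled signal was 25.7 (rank 344), with 15.2 in replicate 1 (rank 468) and 8.92 in replicate 2 (rank 1211). The replicate summits were 5 bp apart, 195 bp upstream of nhr-12 by the pooled list, in a window shared with R04B5.6.

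For nhr-255 (WBGene00014068), whose summit lay in the tRNA gene shown above, the pooled signal was 22.7 (rank 519), with 8.64 in replicate 1 (rank 3594) and 13.2 in replicate 2 (rank 262). The replicate summits were 9 bp apart. The pooled summit also lay within ZK678.11, a non-coding RNA gene. Whether the peak belonged to the receptor, to the tRNA gene or to ZK678.11 was not tested.

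**Figure D2:**
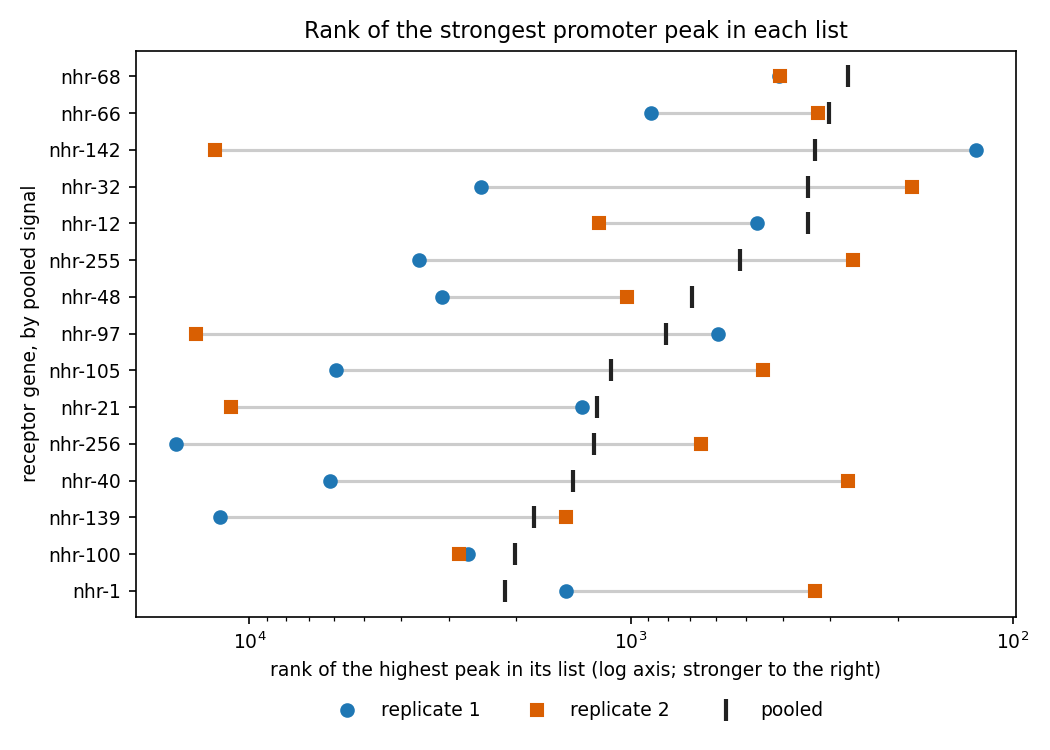
Rank of the highest peak in the window (log axis, stronger to the right) for the 15 receptors of highest pooled signal supported in both replicates, in the replicate 1 list (circles), the replicate 2 list (squares) and the pooled list (bars). The replicate ranks nearly coincide for nhr-68 (410 and 408, at summits 164 bp apart) and nhr-100 (2677 and 2827) and are far apart for nhr-142 (125 and 12313) and nhr-256 (15615 and 656).

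The next receptors had high ranks in 1 replicate more often than in both. At nhr-97 (chromosome IV) the pooled signal was 19.6, with 14.3 in replicate 1 (rank 591) and 4.11 in replicate 2 (rank 13827). At nhr-105 (IV) it was 17.8, with 7.44 (rank 5917) and 11.4 (rank 452). The order of the replicates was thus reversed between these neighbours on the list, each with both replicate summits within 100 bp of each other.

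At nhr-21 (II) the pooled signal was 17.4, with 11.4 in replicate 1 (rank 1342) and 4.52 in replicate 2 (rank 11188). Its pooled summit was in a 5′ UTR, with a replicate 1 summit 3 bp away and the nearest replicate 2 summit 1078 bp away. The highest replicate summits of nhr-21 were 6782 bp apart at different ones of 6 annotated 5′ ends. Whether a weaker replicate 1 summit lay near the highest of replicate 2 was not examined. At nhr-256 (V) the pooled signal was 17.3, with 5.19 in replicate 1 (rank 15615) and 10.3 in replicate 2 (rank 656).

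nhr-40 (WBGene00003630, X), needed for embryonic and early larval development, had a pooled signal of 16.7 at an intronic summit whose window repeats CTCTC. Replicate 1 gave 7.35 (rank 6158) and replicate 2 gave 13.1 (rank 270). The highest replicate summits lay 924 bp apart, although each replicate also had a summit within 28 bp of the pooled one. Replicate 2 was the higher ranked at nhr-139 too (V, a cluster member), where the pooled signal was 15.5, with 5.82 (rank 11930) in replicate 1 and 8.49 (rank 1478) in replicate 2.

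nhr-100 (IV) had a summit in its own coding sequence, 64 bp downstream of a 5′ end, with a pooled signal of 15.02. Replicate 1 gave 9.46 (rank 2677) and replicate 2 gave 7.19 (rank 2827). nhr-1 (X) closed the first 15 with a pooled signal of 14.8, with 11.1 in replicate 1 (rank 1480) and 12.4 in replicate 2 (rank 329). Both genes were among the 5000 strongest peaks of each replicate, and the 6 receptors from nhr-97 to nhr-139 were not.

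Among these 15 receptors, 5 ranked higher in replicate 1 and 10 in replicate 2. In 11 of them each replicate had a summit within 100 bp of the pooled one, and 11 summits were intergenic. These counts were not made over all genes. Taking the 5000 strongest peaks of each replicate list left 10 receptors supported in both (3.72%), against a background of 3.83%. They were nhr-1, nhr-12, nhr-19, nhr-32, nhr-41, nhr-48, nhr-66, nhr-68, nhr-100 and nhr-255, of which 8 were among the first 15. When receptors were ordered instead by their mean percentile in the replicate lists, 10 of the first 15 were shared with the order by pooled signal.

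In receptors as in all genes, the highest summits of the replicates were often at different places. Those highest summits of the replicates were within 100 bp of each other in 21 receptors (7.81% of 269), against a background of 5.84%. That is 32.3% of the 65 receptors supported in both, and 27.3% of the 4278 genes supported in both. The median distance between the replicate summits was 320 bp in receptors and 298 bp in all these genes. For the 46 receptors that also had a pooled summit it was 123 bp. In 21 of these 46, each replicate had a summit, not always its highest, within 100 bp of the pooled one, and these include nhr-68, nhr-40 and nhr-80.

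Across the 65 receptors, the log2 signals of the replicates had a Pearson's r of 0.31 and a Spearman's rho of 0.29. Across the 4278 genes, the values were 0.41 and 0.29. These are descriptions across genes of the same pair of libraries, and genes are not independent replicates.

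**Figure D3:**
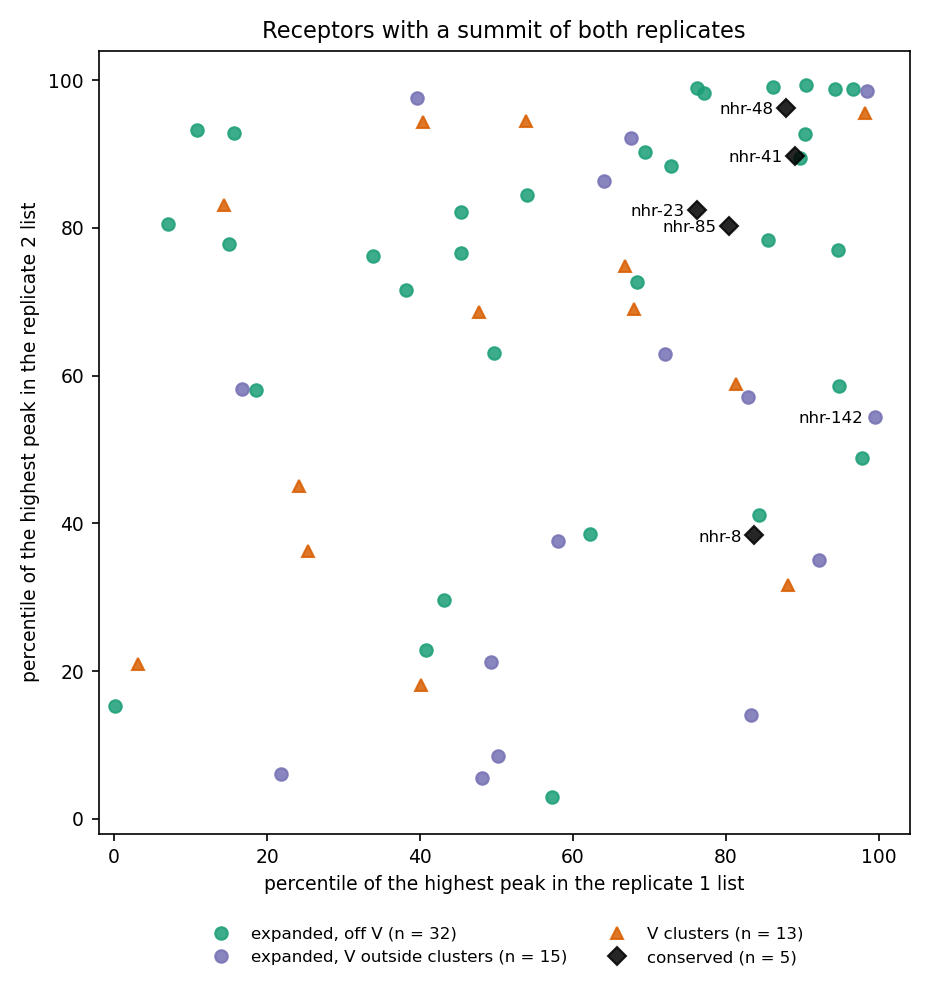
Percentile of the highest peak in the replicate 1 list (x axis) and the replicate 2 list (y axis) for the 65 receptors supported in both replicates, marked as conserved, V cluster members, other V receptors and other expanded receptors. Points spread over most of the field, as the rho of 0.29 states, and nhr-142 (high in replicate 1) and nhr-8 lie well below the diagonal.

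Conserved receptors had peaks more often than the expanded family by count, but on longer windows. Of the 10, 5 were supported in both replicates (50%), with 5 in replicate 1 and 8 in replicate 2, against 60 of 259 in the expanded family (23.2%) and the 21.4% of all protein-coding genes. The shares of all genes in the replicates were 40.4% and 39.7%. The product of the replicate shares was 40% for conserved and 16.4% for expanded receptors. Conserved receptors had several annotated 5′ ends in 8 of 10 cases, and the expanded family in 36.3%, so the median window spanned 2638 bp against 1501 bp. With 1 window per gene at its outermost 5′ end, an alternative chosen after the data were seen, 3 of 10 conserved receptors were supported, against 19.3% of the expanded family and 17.8% of all genes. With only 10 genes, chosen by what is known of them, no test of this difference was made.

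nhr-48 (WBGene00003638, X), a relative of nhr-8 and daf-12, was the strongest conserved receptor and the only one of the 5 whose highest replicate summits were within 100 bp. Its pooled signal was 20.6 (rank 690), with 9.0 in replicate 1 (rank 3131) and 9.27 in replicate 2 (rank 1023), 18 bp apart and 607 bp upstream in intergenic DNA by the pooled summit. nhr-41 (IV), the counterpart of vertebrate testicular receptors, had a pooled signal of 14.6 (rank 2255), with 9.29 in replicate 1 (rank 2844) and 7.23 in replicate 2 (rank 2767). Its replicate ranks were alike, but those summits stood 2142 bp apart over a window of 6563 bp. At the pooled summit, weaker peaks had their summits 0 bp away in replicate 1 (rank 6392) and 105 bp away in replicate 2 (rank 14360).

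nhr-23, the counterpart of vertebrate ROR and a driver of the moulting cycle, had a pooled signal of 10.5 (rank 6942), with 7.36 (rank 6144) in replicate 1 and 6.16 (rank 4740) in replicate 2, 935 bp apart. nhr-8, which acts in cholesterol balance and resistance to toxins, had a pooled signal of 9.0 (rank 10835), with 8.24 (rank 4225) and 3.73 (rank 16648). The nhr-8 summit lay in a coding exon of mrps-24, and its window was shared with emc-6 and mrpl-1, so it is not a peak of nhr-8 alone. nhr-85, a relative of vertebrate REV-ERB that sets larval timing, had no pooled summit, with 7.81 (rank 5076) in replicate 1 and 5.93 (rank 5329) in replicate 2, 2310 bp apart.

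The other 5 conserved receptors had a summit in replicate 2 or in no list. nhr-25, the Ftz-F1 relative that acts with nhr-23 in moulting and epidermal development, had a pooled signal of 8.71 (rank 11864) and 5.57 in replicate 2 (rank 6421), with none in replicate 1. nhr-6, which acts in spermatheca development, had 7.61 in replicate 2 alone (rank 2305). nhr-67, the tailless relative needed in the anchor cell, had 6.06 in replicate 2 alone (rank 4975). nhr-91 and nhr-111 had no summit in the window in any list.

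Receptors off chromosome V were supported in both replicates more often than the genes around them by count, while V cluster receptors were below or above the genes of V depending on how support was counted. Off V, 37 of 102 receptors were supported in both replicates (36.3%), against a background of 22.9% among all protein-coding genes on those chromosomes, and the products of the replicate shares were 23.9% and 17.4%. Within this group the expanded family gave 32 of 93 (34.4%), so the share did not rest on the conserved receptors. By chromosome the shares were 47.8% on X (11 of 23), 39.4% on IV (13 of 33), 37.5% on III (3 of 8), 33.3% on II (5 of 15) and 21.7% on I (5 of 23). The corresponding shares of all genes were 22.0%, 21.0%, 25.1%, 21.2% and 26%, so by this count receptors stood above their chromosome on all but I. For replicate summits within 100 bp they were above on III, IV and X. They were then below on II (0% against 5.94%) and I (4.35% against 7.51%). Among the 5000 strongest peaks of each replicate they were above on II, IV and X. There they were below on III (0% against 4.89%) and I (0% against 4.45%).

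The receptors off V also had a higher share than genes off V under 3 other ways of counting, with smaller numbers. With 1 window per gene they gave 27.5% against 19.0%. Replicate summits within 100 bp were found for 10.8% against 6.24%, and support among the 5000 strongest peaks of each replicate for 7.84% against 4.25%. Their median pooled signal was 12.9 (35 genes with a summit), against 11.3 for genes off V. Several annotated 5′ ends were found in 39.2% of receptors off V and 28.4% of genes off V, which widens the window, and the part this plays was not tested. No test across genes was run on these shares, since neighbouring genes can share a peak and the groups were chosen with results known.

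On chromosome V itself 28 of 167 receptors were supported in both replicates (16.8%), against a background of 16.9% for all genes there. The 65 receptors outside clusters gave 15 (23.1%) and the 102 cluster members 13 (12.7%). Cluster members had a summit of replicate 1 in 34.3% and of replicate 2 in 38.2%, close to the 36.1% and 34.0% of all V genes. Where the replicates met in 16.9% of V genes against a product of 12.3%, they met in 12.7% of cluster members against a product of 13.1%. The order turned round with a window from 2000 bp upstream, where 30.4% of cluster members and 28.3% of V genes were supported. The 57 other protein-coding genes that lay between the ends of the clusters gave 8 supported (14%) with a product of 9.20%.

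Of the 17 clusters, which held 3 to 12 receptors over 8903 to 64024 bp, 10 had no member supported in both replicates, and no cluster had more than 3. The cluster with 12 members had 3, and a cluster with 10 members had 3 of the 7 seen in replicate 1. A cluster of 9 receptors had none in replicate 1 and 5 in replicate 2. Changing the largest gap within a cluster to 10 kb or 50 kb gave 91 or 112 members, of which 13.2% or 12.5% were supported.

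The summits themselves were also thinner in the clusters. Pooled summits numbered 8.36 per 100 kb in the clusters, 11.4 in the rest of V and 13.7 on the other nuclear chromosomes. In replicate 1 the numbers were 20.8, 22.98 and 26.5, and in replicate 2 they were 22.8, 24.2 and 27.6. Cluster genes resemble one another, and the sources used here do not say how reads matching several places were treated, so its part in these numbers was not tested.

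**Figure D4:**
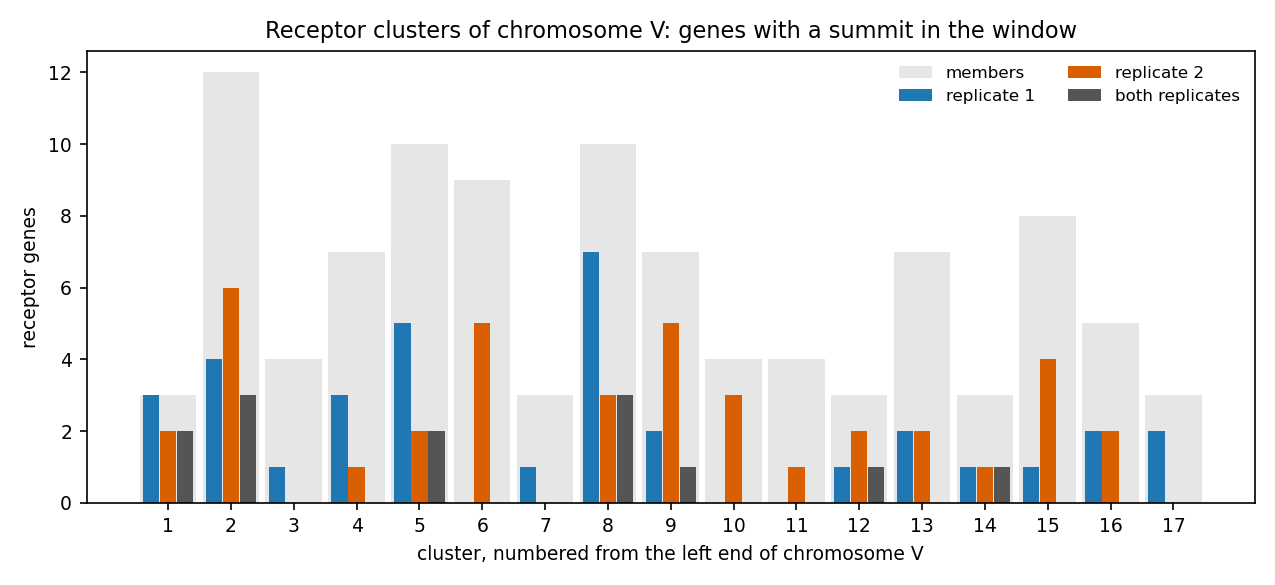
Number of receptor genes (y axis) in each of the 17 chromosome V clusters, numbered along the chromosome: members (pale bars) and those with a summit in the window in replicate 1, in replicate 2 and in both. Cluster 6 has 5 members with a summit in replicate 2 and 0 in replicate 1, and 10 clusters have no member with both.

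The 5 cluster receptors of highest pooled signal were nhr-12, nhr-139, nhr-291, nhr-237 and nhr-136. nhr-291 (WBGene00045515), whose window holds AGGTCA, had a pooled signal of 13.4 (rank 2997) in its own coding exon, with 6.69 in replicate 1 (rank 8262) and 5.08 in replicate 2 (rank 8361). nhr-237 had 12.5 in the pooled list, 6.22 in replicate 1 (rank 10112) and none in replicate 2. nhr-136 had 11.9 in the pooled list, 12.9 in replicate 1 (rank 850) and none in replicate 2. Of these, nhr-12 alone ranked within the 5000 strongest of both replicates. Over the 20 cluster members with a pooled summit the signal ran from 8.47 to 25.7 with a median of 9.65, against a median of 10.99 in the 71 receptors and 11.1 in all genes with a pooled summit.

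Receptors of the NHR-49 and NHR-10 metabolic circuits were listed with results of these data known, so their count describes the list only. Of 7, 5 were supported in both replicates, where 24.2% of receptors and 21.4% of all genes were, and nhr-68 and nhr-66 have been described above. nhr-49, the HNF4-related regulator of fat use and fasting, had a pooled signal of 13.9 (rank 2664), with 6.79 in replicate 1 (rank 7889) and 7.35 in replicate 2 (rank 2610). Its replicate summits were 3392 bp apart at different ones of 6 5′ ends, although the pooled summit had a replicate 1 summit 17 bp away and a replicate 2 summit 123 bp away.

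nhr-80, an NHR-49 partner in fatty acid desaturation, had a pooled signal of 10.9 (rank 6004), with 5.42 (rank 14108) in replicate 1 and 5.61 (rank 6301) in replicate 2. nhr-114, which adapts metabolism to the bacterial diet, had no pooled summit, with 8.14 (rank 4420) and 4.46 (rank 11589). In each of these genes the highest peak of 1 replicate ranked well above that of the other, replicate 2 at nhr-80 and replicate 1 at nhr-114. Those peaks were at different places, with summits 711 bp apart at nhr-80 and 613 bp apart at nhr-114. At the pooled summit of nhr-80, the replicate 1 summit 9 bp away ranked 19368 and the replicate 2 summit 40 bp away ranked 6301. nhr-13, another NHR-49 partner, had a pooled signal of 9.05 and 10.5 in replicate 1 (rank 1788) with none in replicate 2, and nhr-10 had 5.96 in replicate 2 alone (rank 5238).

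The gene of the tagged receptor itself carried no peak. nhr-11 (WBGene00003610, chrIV:9070003-9073622) had no summit in its window in any of the 4 lists. The nearest summits were 18337 bp downstream in the pooled list (signal 9.13), 18089 bp in replicate 1 and 22017 bp in replicate 2. The nearest thresholded summit was 374783 bp away. The strain also has the tagged nhr-11 copy on the transgene wgIs305, and its part in the signal at this gene was not tested.

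Genes that work with the receptors were taken from a short list of receptors with other names, coregulators and enzymes that make or change steroid ligands. Of 12 genes, 5 were supported in both replicates, against 21.4% of all protein-coding genes, among them all 3 coregulators, 1 of 5 receptors and 1 of 4 enzymes. din-1, a corepressor of the steroid receptor DAF-12, had a thresholded summit with a pooled signal of 38.7 (rank 96), above every nhr- gene. Replicate 1 gave it 31.6 (rank 50) and replicate 2 gave 7.79 (rank 2083), at summits 23 and 406 bp upstream. The highest peaks of the replicates thus differed in rank and place. Whether replicate 2 also had a weaker summit nearer the pooled one was not examined. daf-12, the dafachronic acid receptor that times larval development, had a pooled signal of 21.1 (rank 640), with 16.4 (rank 374) and 5.39 (rank 7060). Those replicate summits lay 396 and 74 bp upstream.

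mdt-15, a Mediator subunit that works with NHR-49, had a pooled signal of 15.03 (rank 2010), with 10.01 (rank 2166) in replicate 1 and 7.61 (rank 2291) in replicate 2. Its ranks were the most even of the list, but they belong to summits 276 and 125 bp upstream. cbp-1, the acetyltransferase of the CBP and p300 family, had a pooled signal of 8.67, with the highest replicate summits 30 and 938 bp upstream. dhs-16, which acts in dafachronic acid synthesis, had 8.88, with the highest replicate summits 199 and 656 bp upstream. daf-9, the cytochrome that makes dafachronic acid, had a pooled and a replicate 1 summit but none in replicate 2. fax-1, unc-55, odr-7 and hsd-1 had no summit in any list, and sex-1 and daf-36 had a summit in replicate 2 alone.

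Peaks lay upstream of receptor genes about as often as of other genes, in a window that itself reaches 1000 bp upstream and 500 bp downstream. Of the 71 receptors with a pooled summit, 77.5% had it upstream of the nearest 5′ end of the receptor, against 74.8% of all genes with one. The median upstream distance was 324 bp in receptors and 238 bp in all genes. The summit was shared with the window of another protein-coding gene in 16.9% of receptors and 29.3% of all genes. Among the 1000 strongest pooled peaks were those of 9 receptors (12.7% of 71) and of 12% of genes with a pooled summit (589 of 4927).

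In the 46 receptors supported in both replicates with a pooled summit, 39 summits were upstream, at a median of 372 bp. They were intergenic in 27, in a coding exon in 8, in an intron in 7 and in a 5′ UTR in 4. The receptor had the nearest protein-coding 5′ end in 42 of them, and 8 shared the summit with another protein-coding gene. Those 8 include nhr-68, nhr-142 and nhr-12 among the 5 highest signals. The counts for these 46 receptors were not made over all genes supported in both replicates with a pooled summit.

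Some receptors carried pooled summits within the gene but outside the window. There were 53 such receptors (19.7% of 269), near the background of 19% of all protein-coding genes, and 31 of them had no pooled summit in the window. nhr-27 (chromosome X) had 10 over a gene of 102756 bp, and nhr-1 (X) had 8, while nhr-19, nhr-40, nhr-41 and nhr-46 had 5 each. Long genes have more room for summits, and the part of length was not tested.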

How the data were processed

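The data were ChIP-seq peak lists on ce11 from 2 biological replicates of 1 group: 1 list per replicate, 1 pooled and 1 thresholded. Per the file listings deposited with the samples, the authors called peaks against a control alignment. They kept unthresholded lists of peaks and background to feed an irreproducible discovery rate step, and derived the thresholded list from these. Aligner, peak caller and versions: not given in the sources used here. Signal values were deposited by the authors as their caller wrote them, and the summit offset in bp, also deposited, gave its position. Lists on ce10 were not used. No interval or p-value is given, since the lists hold no read counts and the design has 1 group.

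Genes and 5′ ends came from Ensembl release 115 and DNA from the RefSeq WBcel235 genome. Positions are 1-based. Summits were assigned with Python 3.11.15, NumPy 2.4.6 and pandas 2.3.3. The assignment was tested on simulated data. The members, the lists of conserved, metabolic and related genes, and the hexamers were chosen with earlier results of these data known.

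Genes were named by this rule: every receptor with a thresholded summit; the 15 of highest pooled signal supported in both replicates; every conserved receptor; the 5 cluster receptors of highest pooled signal; nhr-11; the 2 on either side of the lowest thresholded signal, where 1 lay inside; and 7 metabolic receptors. Alternatives were other windows, any-base overlap, the nearest 5′ end, leaving out peaks near short RNA genes, stricter replicate support, other conserved lists and cluster gaps, leaving out each replicate and, chosen after seeing the data, 1 window per gene.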

Additional observations from a re-analysis of the deposited data

How the results depend on the processing

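Of 67 recomputed values, 39 stayed within 1.5 times the reported count or, for medians, within the spread between replicates, and 28 moved by more. That spread was 1.09 between lists with no shared scale of signal, so it is a working limit and not a measure of variation in the pooled median. Receptors supported in both replicates numbered 103 with a window from 2000 bp upstream (97 expanded, 31 in V clusters; 38.3% of receptors against 33.8% of all genes). They numbered 34 with a window of 500 bp upstream to 200 bp downstream (3 conserved, 31 expanded, 8 in clusters; 12.6% against 10.7%). Counting any base of a peak in the window gave 21 cluster receptors. Requiring summits within 100 bp left 21 receptors (1 conserved, 20 expanded, 5 in clusters), and the 5000 strongest peaks left 10 (2 conserved, 8 expanded, 1 in clusters; 3.72% against 3.83%). Comparisons with the background turned round in places. Cluster receptors were below V genes as reported (12.7% against 16.9%) and above them with the 2000 bp window (30.4% against 28.3%), for summits within 100 bp (4.90% against 4.67%) and without replicate 1 (38.2% against 34.0%). All receptors were above all genes as reported (24.2% against 21.4%) and below them among the 5000 strongest peaks and without replicate 2 (39.0% against 40.4%). With each peak given to its nearest 5′ end, 0 receptors had a thresholded summit. With 1 window per gene, 3 conserved receptors were supported.

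Leaving out a replicate meant using the other replicate's own list, so support then rests on 1 list. Without replicate 1 or without replicate 2, the counts ran from 105 to 118 for all receptors, 5 to 8 for conserved, 100 to 110 for expanded and 35 to 39 for cluster receptors. The median signal was 4.88 to 6.41, on those lists' own scales. Among the 280 strongest peaks of the remaining list were 1 to 3 receptors: nhr-142 in replicate 1, and nhr-32, nhr-40 and nhr-255 in replicate 2. nhr-68 was in neither. Depth is unknown, so a gene with no summit may have one at greater depth. No paired analysis was possible because there is 1 group.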

Other observations

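nhr-3 (X) shows what the edge of the window can do. It had a pooled signal of 19.5 (rank 825) at 964 bp upstream and 12.3 in replicate 1 (rank 1023). The pooled summit lay within H01A20.2, a non-coding RNA gene. Replicate 2 had a summit 92 bp from the pooled one, with a signal of 8.77 (rank 1305), but outside the window, so nhr-3 was not counted as supported in both replicates. By signal it would have stood after nhr-97 in the order.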
